A study of Mus musculus with 8 samples.

Results

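MiR-126 and miR-210 were followed in callus tissue of 8 mice at 7 days after femoral osteotomy, on arrays that carried 1079 murine miRs. Every miR whose name on the array was mmu-miR-126 or mmu-miR-210, with any arm, was included, without regard to its signal. This gave 4 of the 1079 miRs, mmu-miR-126-3p, mmu-miR-126-5p, mmu-miR-210-3p and mmu-miR-210-5p. The software of the scanner called 3 of them detected on all 8 arrays, whereas miR-210-5p was detected on none.

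CD-1 mice of the Non-union group (P13 to P16, n = 4) had a femoral gap of 1.8 mm together with stripping of the periosteum next to it. In the Union group (CD-1 mice, P17 to P20, n = 4) the femur had a gap of 0.25 mm and no periosteal stripping, so that both interventions differed at the same time. In all animals an intramedullary pin and a metallic clip held the fragments. The methods of the study state male and female mice aged 9 to 14 weeks without giving the sex or age of a single array, and intact animals without surgery were not included. The RNA of each callus was hybridized to 1 array of a single slide.

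MiR-126 is the miR most closely tied to endothelial cells. It is made from an intron of Egfl7, a gene of the vessel wall, and restrains the inhibitors Spred1 and Pik3r2 of the signalling downstream of VEGF. MiR-210 is a target of the transcription factor HIF-1 and is the miR that is most regularly induced by low oxygen, with Iscu, an assembly factor of iron-sulfur clusters, and ephrin-A3 among its known targets. Vessel ingrowth and oxygen supply belong to the early phase of bone healing, which is why these miRs are of interest in a callus. A miR precursor is a hairpin from which a 5p and a 3p arm are cut. The seed, bases 2 to 8 of the mature arm, is the stretch that pairs with target transcripts.

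The mature sequences are shown because they set what the arrays measured and which seed each arm carries. The names on the array were matched to the RefSeq annotation of the mouse genome (GRCm38.p6), in which the miR-126 of the array is called miR-126a, and 3 of the 4 arms had a mature sequence there. MiR-126a-5p was not matched. The seeds are in capitals, and each sequence runs 5′ to 3′:
miR-126a-3p: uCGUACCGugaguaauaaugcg
miR-210-3p: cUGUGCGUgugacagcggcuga
miR-210-5p: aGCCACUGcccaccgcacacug

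Mature miR-126a-3p spans chr2:26591402-26591423 on the plus strand. The arms of miR-210 lie on the minus strand, with the 3p arm at chr7:141221407-141221428 and the 5p arm at chr7:141221445-141221466. Within the table, Mir126a lay inside Egfl7, and Mir210 lay inside no other gene. Among the 1679 mature murine sequences of the table, 0 others carried the seed of miR-126a-3p or of either arm of miR-210. The array was designed on another build (mm9), and its own coordinates were not used.

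The precursors show how the arms belong together, with the matched mature arms in capitals:
Mir126a hairpin: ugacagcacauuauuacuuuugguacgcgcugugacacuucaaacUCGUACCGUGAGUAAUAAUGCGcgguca
Mir210 hairpin: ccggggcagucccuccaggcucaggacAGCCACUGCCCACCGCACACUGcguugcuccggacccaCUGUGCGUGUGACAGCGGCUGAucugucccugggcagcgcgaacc

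The Mir126a hairpin of 73 bases spans chr2:26591357-26591429 (plus strand) and the Mir210 hairpin of 110 bases spans chr7:141221384-141221493 (minus strand). A second locus, Mir126b, lies on the opposite strand of Mir126a. Its 5p arm has a run of 19 bases that is complementary to miR-126a-3p. The array had 0 names for miR-126b, so that this antisense locus was not measured.

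Summed over the murine miRs, an array gave 183589 to 279341 units of merged signal in the Non-union group and 227941 to 360063 units in the Union group, with 324 to 366 and 361 to 391 miRs detected. Negative control spots had a net signal of 51.2 to 55.0 in the Non-union group and of 46.9 to 47.9 in the Union group. Each row of the slide held 1 group, so that row and group cannot be told apart. Detection on every array was met by 310 miRs, which were tested with limma on quantile normalized log2 signals. Of these, 43 had an unadjusted p under 0.05 (13.9%), 30 of them higher in the Non-union group, and 1 had a Benjamini-Hochberg adjusted p under 0.05 (0.323%). Of the 3 detected arms of miR-126 and miR-210, 0 were among them. The number of 43 changed in both directions when single arrays were left out. It was 31 without P13, 49 without P14, 20 without P15 and 28 without P16. It was 18 without P17, 21 without P18, 115 without P19 and 49 without P20. P20 stood apart by its leukocyte miRs, as described below.

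The endothelial arm miR-126-3p was detected strongly on every array. Its merged signal, a background-corrected value for 40 spots, was 2597, 2658, 2427 and 1900 units on P13 to P16 and 3003, 2713, 2686 and 3399 units on P17 to P20. All Union arrays lay above all Non-union arrays before normalization, with the closest pair (P14 and P19) apart by less than the error of 7.13% to 7.15% that the software gave to each signal. The group means were 2396 ± 344 units for Non-union and 2950 ± 332 units for Union (SD, n = 4 each), a ratio of 0.812 (two-sided exact permutation test on the log2 signals, p = 0.0286, the lowest value that this design can reach). Of the 310 tested miRs, 13 had groups without overlap in the merged signals (4.19%), 8 of them lower in the Non-union group (2.58%).

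Quantile normalization removed this separation. The normalized log2 signals of miR-126-3p were 11.23, 11.27, 11.32 and 11.10 on P13 to P16 and 11.32, 11.27, 11.57 and 11.79 on P17 to P20. P17 and P18 then lay within the range of the Non-union group, and only P19 and P20 exceeded it. The mean was 11.23 ± 0.098 for Non-union and 11.49 ± 0.24 for Union (SD, n = 4 each). The difference of -0.26 (SE 0.19, 95% confidence interval -0.68 to 0.17) did not pass the threshold (limma, unadjusted p = 0.202, adjusted p = 0.396; two-sided exact permutation test, p = 0.143). The difference was -0.16 without P20, and it was only -0.079 or -0.064 when each array was scaled by its 75th percentile over the detected or over all miRs. In the same tissue fewer endothelial cells and less miR-126 per cell cannot be told apart, and this holds for every miR given here.

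The other arm of the precursor, miR-126-5p, gave merged signals of 57.6, 44.9, 39.8 and 34.7 units on P13 to P16 and of 78.7, 66.9, 56.4 and 72.9 units on P17 to P20. The groups overlapped through P13 and P19 alone. The means were 44.2 ± 9.81 units for Non-union and 68.7 ± 9.54 units for Union (SD, n = 4 each), a ratio of 0.644 (two-sided exact permutation test on the log2 signals, p = 0.0571). After normalization the log2 signals were 5.88, 5.44, 5.50 and 5.54 against 5.88, 5.71, 5.91 and 6.30. P13 of the Non-union group then had the same value as P17. The difference of -0.36 (SE 0.20, 95% confidence interval -0.82 to 0.098) did not pass the threshold (limma, unadjusted p = 0.109, adjusted p = 0.378; two-sided exact permutation test, p = 0.0857). The median difference of all 310 tested miRs was 0.15, so that miR-126-3p lay 0.41 and miR-126-5p 0.51 on the log2 scale below it. Negative differences were common, with 40.6% of all tested miRs lower in the Non-union group by any size.

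The hypoxia arm miR-210-3p gave merged signals of 156, 174, 157 and 171 units on P13 to P16, a narrow range. On P17 to P20 the signals were 166, 85.5, 150 and 206 units, so that the Union group held both the lowest and the highest array. The means were 164.5 ± 9.03 units for Non-union and 152.0 ± 50.2 units for Union (SD, n = 4 each), without a detectable difference (two-sided exact permutation test on the log2 signals, p = 0.686). The normalized log2 signals were 7.26, 7.20, 7.55 and 7.79 in the Non-union group and 6.94, 6.23, 7.31 and 7.65 in the Union group. P18 was the lowest of all arrays and P16 the highest. The difference of 0.41 (SE 0.31, 95% confidence interval -0.29 to 1.12) did not pass the threshold (limma, unadjusted p = 0.218, adjusted p = 0.407; two-sided exact permutation test, p = 0.286). In linear terms this interval ran from a ratio of 0.816 to one of 2.18, so that a higher as well as a lower level in the Non-union group was within the error. Without P18 the difference was 0.15, and without P20 it was 0.61.

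The passenger arm miR-210-5p was listed with the floor signal of 0.1 on all arrays. Its 2 probes gave between -2.67 and 0.43 units, and at most 1 of the 20 spots of a probe was well above background on any array. No comparison was therefore made for it.

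**Figure D1:**
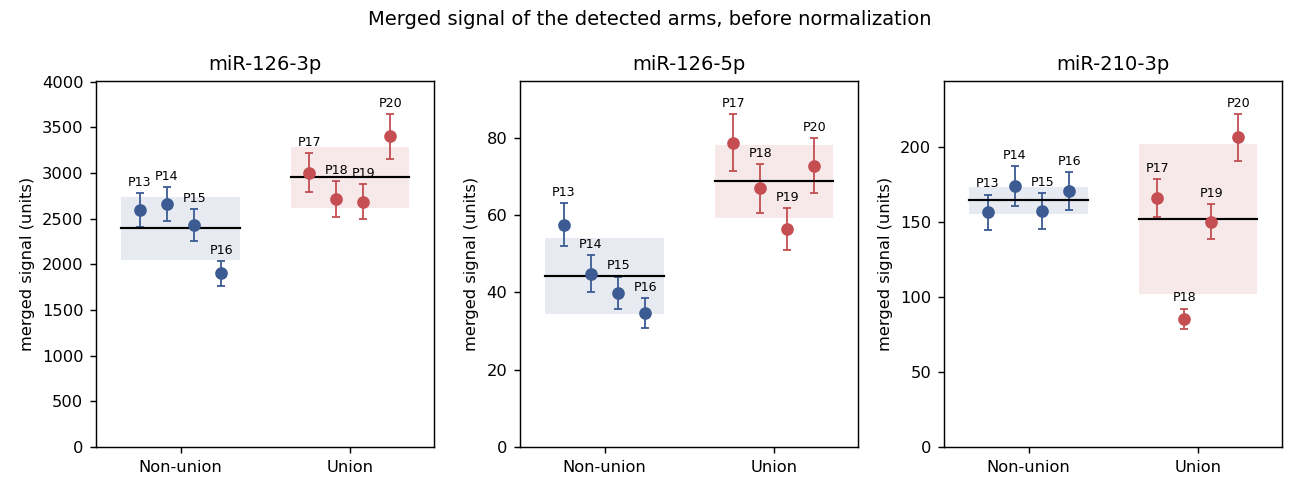
Merged signal (units, linear axis from 0) of miR-126-3p, miR-126-5p and miR-210-3p on each array before normalization, with 1 point per mouse and error bars for the error given by the software; black lines are group means and shaded bands 1 SD. The Union arrays of miR-126-3p all lie above the Non-union arrays, those of miR-126-5p overlap with them through P13 and P19, and miR-210-3p ranges from 85.5 to 206 units within the Union group.

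Each probe was tested on the log2 mean of the processed signals of its 20 spots, without normalization. Both probes of miR-126-3p gave the same direction. The differences were -0.30 (two-sided exact permutation test, p = 0.0571) and -0.31 (p = 0.0286 in the same exact permutation test). The probes of miR-210-3p differed by 0.18 and 0.17 (exact permutation tests, p = 0.686 for both).

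MiR-126-5p was an exception, because its probes were not merged in the same way on all arrays. Probe A_54_P1035 was bright, with 51.2, 44.9, 39.8 and 34.7 units on P13 to P16 and 69.8, 59.9, 51.1 and 66.5 units on P17 to P20. In these probe signals of the software P13 lay slightly above P19, and the log2 difference was -0.54 (two-sided exact permutation test, p = 0.0571). In the spot means, P19 lay slightly above P13, with 133.6 against 133.2 units, and the difference was again -0.54 (exact permutation test, p = 0.0286). The groups of this probe were therefore separated or not by the way in which the spots were averaged. Probe A_54_P4367 was dim, with 6.39, 3.72, 3.44 and 3.44 units on P13 to P16 and 8.91, 7.02, 5.28 and 6.35 units on P17 to P20. Its difference was -0.73 in the spot means (two-sided exact permutation test, p = 0.0571). Only 0 to 14 of its 20 spots were well above background.

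The software counted the dim probe in the merged signal on 4 of 4 Union arrays, but on 1 of 4 Non-union arrays, where P14, P15 and P16 lacked it. The merged signal of these 3 arrays was that of the bright probe alone. When the signals of both probes were summed on all arrays, an alternative chosen after seeing the data, the normalized difference of miR-126-5p was -0.28 (limma, unadjusted p = 0.183). Such uneven merging, by 3 or more arrays between the groups, concerned 4 of the 310 tested miRs, and in all 4 the probe was missing more often in the Non-union group.

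**Figure D2:**
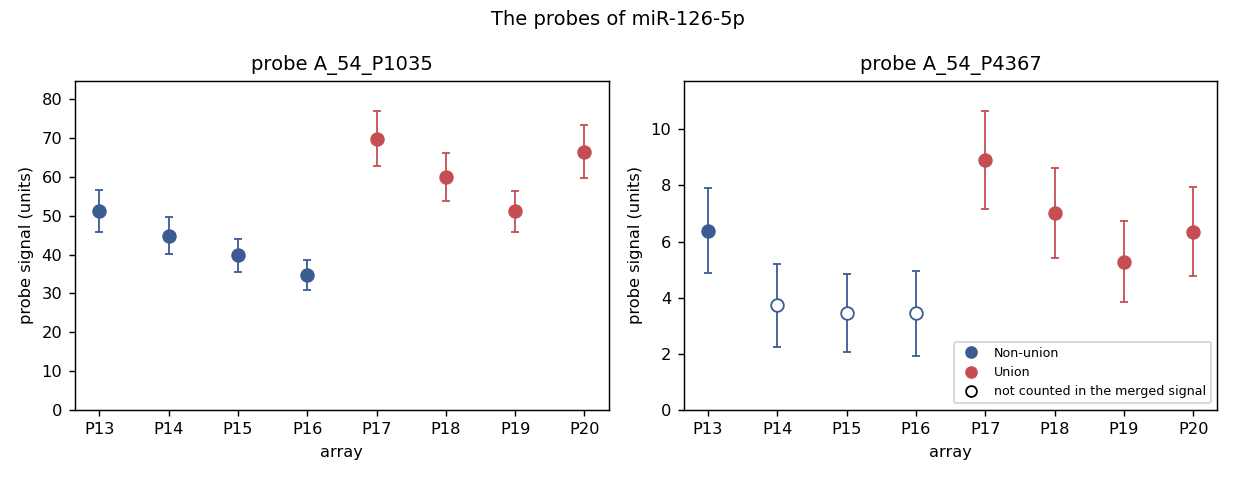
Signal (units, linear axes from 0, with different scales) of the bright probe A_54_P1035 (left) and the dim probe A_54_P4367 (right) of miR-126-5p on each array, with error bars for the error given by the software. Open circles mark the 3 Non-union arrays on which the dim probe was left out of the merged signal.

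Ratios within an array cancel a factor that both miRs share on it, and were compared between the groups. Quantile normalization shifts each miR by its rank, so that normalized ratios still depend on it. They do not compare the amounts of the miRs, since probes differ in their response. The log2 signal of miR-126-3p exceeded that of miR-126-5p by 5.35, 5.84, 5.82 and 5.56 on P13 to P16 and by 5.44, 5.56, 5.67 and 5.49 on P17 to P20. The Union arrays lay within the range of the Non-union arrays, and the difference between the groups was 0.10 (two-sided exact permutation test, p = 0.429). Without normalization it was 0.34 (exact permutation test, p = 0.0857). When the signals of all probes were summed and then quantile normalized, it was 0.02 (exact permutation test, p = 0.80), to be set beside the 0.10. A shift between the arms of miR-126 was therefore not detectable with these arrays.

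After quantile normalization, the ratio of the endothelial to the hypoxia miR separated the groups. The normalized log2 signal of miR-126-3p exceeded that of miR-210-3p by 3.97, 4.08, 3.78 and 3.31 on P13 to P16. On P17 to P20 the excess was 4.38, 5.04, 4.26 and 4.14, so that all Union arrays lay above all Non-union arrays. The mean was 3.78 ± 0.34 for Non-union and 4.46 ± 0.40 for Union (SD, n = 4 each). The difference of -0.67, a ratio that was 1.59-fold higher in the Union group, had the smallest p possible (two-sided exact permutation test, p = 0.0286, adjusted p = 0.0857 over 3 ratios). The gap between P14 and P20, the closest arrays, was small. Without normalization the difference was -0.49 and the ranges of 3.48 to 4.05 and 4.04 to 4.99 overlapped (exact permutation test, p = 0.0571). The corresponding difference for miR-126-5p and miR-210-3p was -0.77 (exact permutation test, p = 0.0571, adjusted p = 0.0857).

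**Figure D3:**
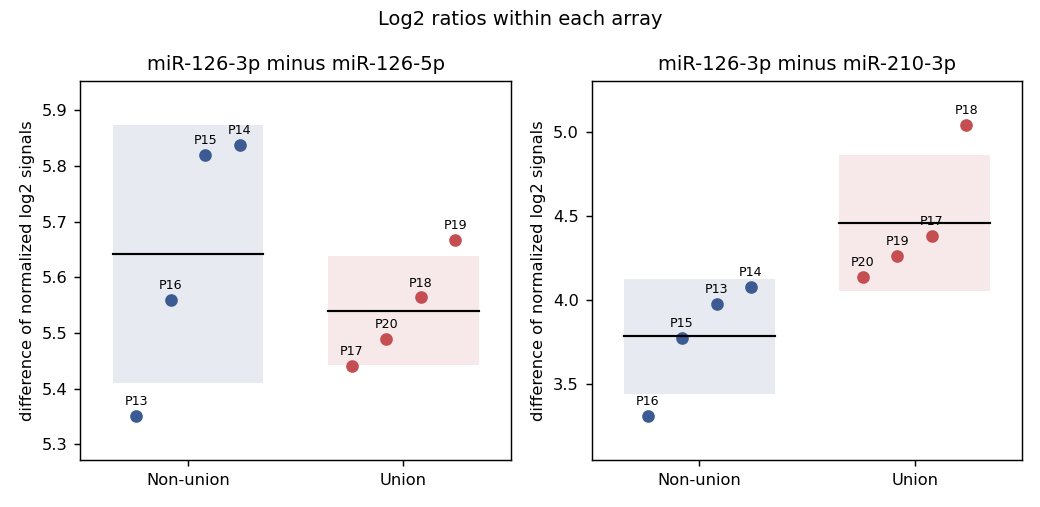
Difference of the normalized log2 signals of miR-126-3p and miR-126-5p (left) and of miR-126-3p and miR-210-3p (right) on each array, sorted within the group; black lines are group means and shaded bands 1 SD, and the axes do not start at 0. The groups overlap on the left, and on the right the Union arrays (4.14 to 5.04) lie above the Non-union arrays (3.31 to 4.08).

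Relations between the arms were computed over the 8 arrays, and 3 relations were tested. MiR-126-3p and miR-126-5p had a Pearson r of 0.79 (exact permutation test, p = 0.0235, adjusted p = 0.0705) and a Spearman rho of 0.58 (exact permutation test, p = 0.138, adjusted p = 0.415). Without P19 and P20, the arrays farthest from the median of miR-126-3p, r was 0.19. Without P20 alone, r was 0.48. Leaving arrays out also narrows the range of miR-126-3p, so these values cannot show whether the relation rested on P19 and P20. Over the 8 arrays without normalization, where differences in total signal between arrays remain, r was 0.87. The deviations from the group means had an r of 0.64. MiR-210-3p showed no detectable relation to miR-126-3p (r = 0.18, exact permutation test, p = 0.642, adjusted p = 0.877, and rho = 0.072, p = 0.871) or to miR-126-5p (r = 0.063, exact permutation test, p = 0.877, and rho = 0.12, p = 0.781) at the given number of arrays. Without the 2 farthest arrays these r were -0.47 and -0.37, and without P20 alone they were -0.16 and -0.31. The deviations of miR-210-3p from its group means, in contrast, had an r of 0.68 with those of miR-126-3p and of 0.56 with those of miR-126-5p.

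The miRs with the pattern most like that of miR-126 over the 8 arrays included leukocyte miRs. The highest r with miR-126-3p were those of miR-3473b (0.94), miR-3473 (0.93) and miR-223-3p (0.88), and with miR-126-5p those of miR-223-3p (0.91), miR-340-5p (0.87) and miR-142-3p (0.86). MiR-223-3p is abundant in granulocytes and macrophages, and miR-142-3p in leukocytes in general. The arrays share their normalization, and P20 was high in these miRs. Without P20, r with miR-223-3p was 0.62 for miR-126-3p and 0.83 for miR-126-5p. The most similar to miR-210-3p were miR-93-5p (0.96), miR-450a-5p (0.96) and miR-20b-5p (0.95), with r of 0.95, 0.96 and 0.94 without P20. MiR-93 and miR-20b belong to the paralog clusters of miR-17-92, which are known from proliferating cells.

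Markers of other cell types were set beside these results. The summed merged signal of the 4 myeloid and leukocyte miRs (miR-223 and miR-142, both arms of each) was 3534 to 4985 units in the Non-union group and 5376 to 20398 units in the Union group, with P20 the highest. Of these miRs, miR-223-5p was detected on no array and 3 were tested, with negative differences and a median of -0.65. MiR-223-3p had normalized log2 signals of 11.32, 10.75, 11.01 and 11.27 on P13 to P16 and of 11.57, 11.42, 12.05 and 13.83 on P17 to P20. It was lower in the Non-union group by the unadjusted p (difference -1.13, SE 0.49, limma, unadjusted p = 0.0464, adjusted p = 0.346), and the difference was -0.60 without P20 (limma, unadjusted p = 0.0366). The study lists miR-223-3p for its fold change alone, with a p that did not pass, so this call depends on the test. The leukocyte miRs had differences of the same sign as miR-126, and their part in the miR-126 values was not tested.

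The tested markers of red blood cells (miR-451 and both arms of miR-144) summed to 2960 to 9469 units in the Non-union group and 3050 to 16676 units in the Union group, and 0 of 3 passed the threshold (median difference -0.30). MiR-486-5p was not analysed here. Of the 6 muscle miRs, 4 were tested and 0 passed, with a median of -0.30 and sums of 14855 to 62359 and 36945 to 95817 units. P16 had the lowest sum of the muscle miRs. The smooth muscle and pericyte arms miR-143-3p and miR-145-5p, which mark the wall around the endothelium, differed by 0.30 and 0.53 and did not pass (limma, unadjusted p = 0.194 and 0.258). Both miR-143-5p and miR-145-3p were detected on no array. The summed signal of the list was 179 to 383 units in the Non-union group and 223 to 249 units in the Union group. All 4 cartilage miRs (miR-140 and miR-455, both arms of each) were higher in the Non-union group by the unadjusted p, beside 9.68% of all tested miRs. Their median was 1.43, with sums of 934 to 3521 against 484 to 996 units. The groups overlapped in each of these arms, and 0 had an adjusted p under 0.05. P16 had the highest cartilage sum and the lowest merged signal of both arms of miR-126, but also the lowest total signal of all arrays (183589 units), and after normalization P14 was the lowest in miR-126-5p. The part of tissue composition in these values was not tested.

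Further miRs known for a role in vessel growth were examined as a list of 23 guide arms, all of which were detected and tested. The list was not divided into miRs that promote and miRs that restrain vessel growth. In the Non-union group 1 was higher and 1 lower by the unadjusted p, while 0 passed after adjustment. MiR-132-3p, which promotes endothelial proliferation, was higher (4.58 ± 0.26 against 3.63 ± 0.50, SD, n = 4; difference 0.95, SE 0.28, limma adjusted p = 0.288). MiR-10b-5p, which takes part in angiogenic sprouting, was lower (7.57 ± 0.14 against 7.99 ± 0.19, SD, n = 4; difference -0.42, SE 0.18, limma adjusted p = 0.346). The groups did not overlap for either of them. Of all tested miRs, 4.19% were lower and 9.68% higher by the unadjusted p, and 3.87% had groups without overlap (2.58% lower and 1.29% higher). The median difference of the list was 0.24 (range -0.42 to 0.95), with 19 positive and 4 negative differences, beside a median of 0.15 and 184 positive differences among all tested miRs.

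The miR-17-92 cluster (miR-17-5p, miR-18a-5p, miR-19a-3p, miR-19b-3p, miR-20a-5p and miR-92a-3p) had differences of 0.82, 0.27, 0.11, 0.06, 0.03 and 0.01, of which none passed (limma, unadjusted p from 0.0982 to 0.960). The miR-23, miR-24 and miR-27 arms, known from endothelial cells as well as from hypoxia, had differences of 0.24 to 0.33. Among these, miR-23a-3p and miR-27a-3p had higher signals on all Non-union arrays than on any Union array. Of all tested miRs, 1.29% were higher without overlap, miR-132-3p among them. MiR-23a-3p and miR-27a-3p did not pass the threshold in limma (unadjusted p = 0.171 and 0.0958), whereas the study lists both with a p under 0.05. MiR-221-3p and miR-222-3p, which restrain the receptor Kit in endothelial cells, differed by 0.05 and 0.18.

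Of 16 guide arms that are regulated by hypoxia or act on its response, miR-181b-5p and miR-199a-5p were higher in the Non-union group by the unadjusted p, and 0 were lower, beside 9.68% and 4.19% of all tested miRs. The difference was 0.66 for miR-181b-5p (SE 0.26, limma adjusted p = 0.313) and 0.69 for miR-199a-5p (SE 0.28, limma adjusted p = 0.322), and the groups overlapped in both. MiR-199a-5p restrains Hif1a and is also a miR of mesenchymal cells. MiR-107-3p and miR-103-3p, which act on the partner Arnt and on Dicer, differed by 0.07 and 0.14. MiR-155-5p, a miR of activated leukocytes that is raised by low oxygen, differed by -0.16. The median of the list was 0.23 with 12 positive and 4 negative differences, and 5 of its arms belonged to the vessel growth list as well.

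**Figure D4:**
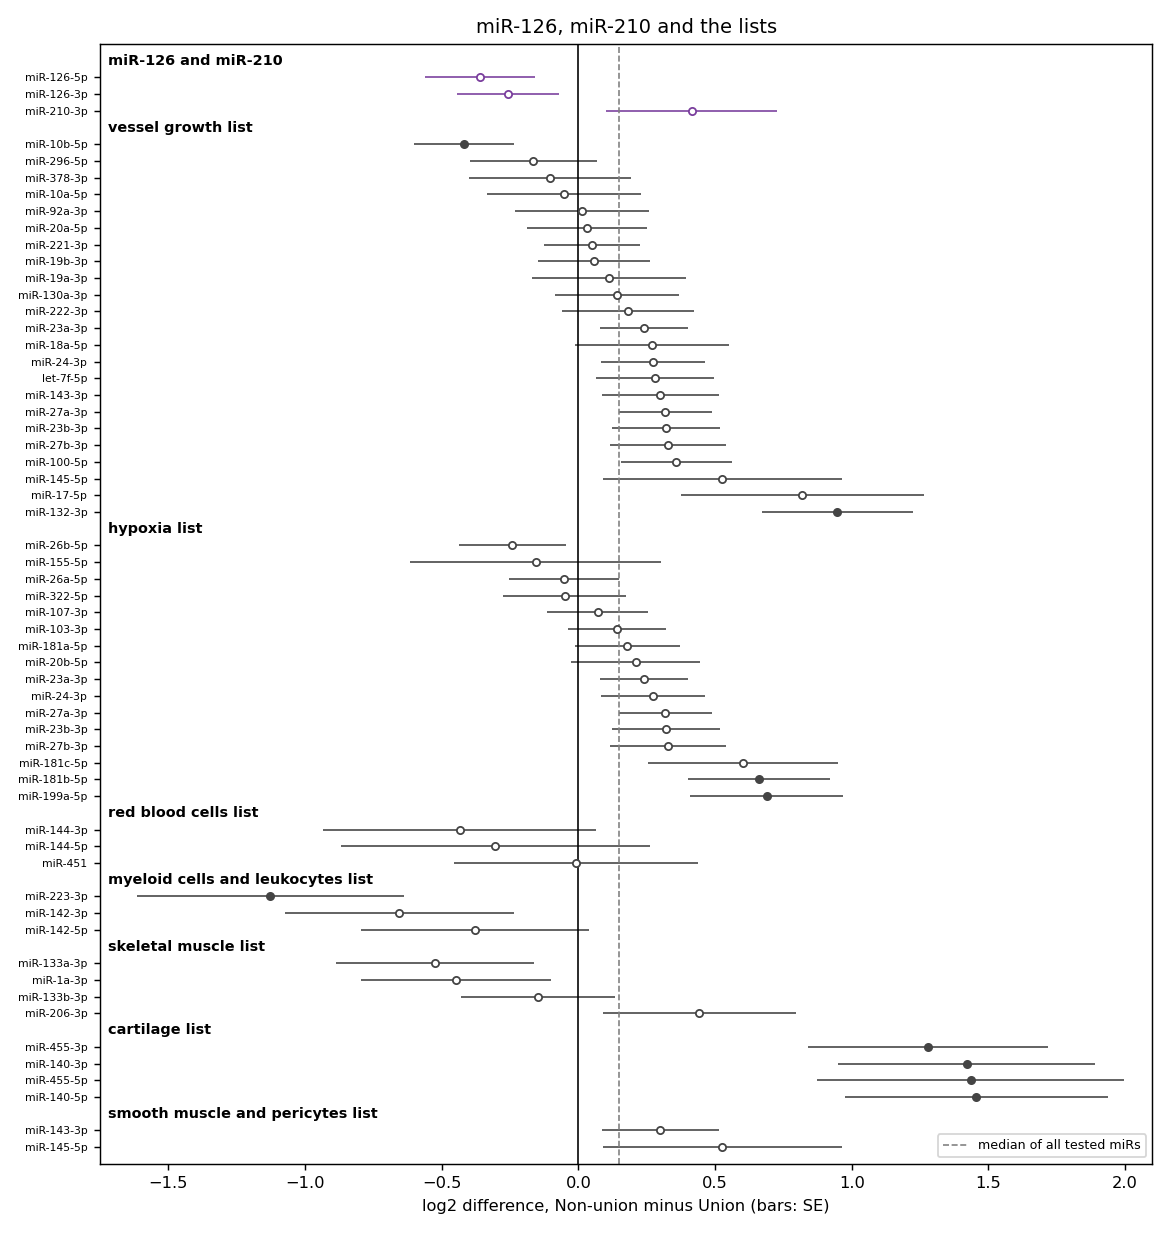
Log2 difference (Non-union minus Union) with its SE from limma for the detected arms of miR-126 and miR-210 and for the miRs of each list; filled circles have an unadjusted p under 0.05 and the dashed line is the median of all 310 tested miRs (0.15). Both arms of miR-126 lie below 0 and miR-210-3p above it, all with an unadjusted p of 0.05 or more, and the 4 cartilage miRs lie highest among the lists.

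The direction of the 3 detected arms was kept under all 20 alternatives of the processing and of the arrays. The 2 other filters and the intensity trend used the same normalized signals, so the direction could not change there. Setting signals under 1 to 1 also left the 3 differences as they were. The difference of miR-126-3p ranged from -0.31 to -0.06, that of miR-126-5p from -0.65 to -0.17 and that of miR-210-3p from 0.15 to 0.61. An unadjusted p under 0.05 was reached in 1 of 20 alternatives for miR-126-3p, in 2 of 20 for miR-126-5p and in 0 of 20 for miR-210-3p. Those of miR-126-5p used the unevenly merged signals. The adjusted p of limma was at least 0.360, 0.230 and 0.285 in all of them.

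**Figure D5:**
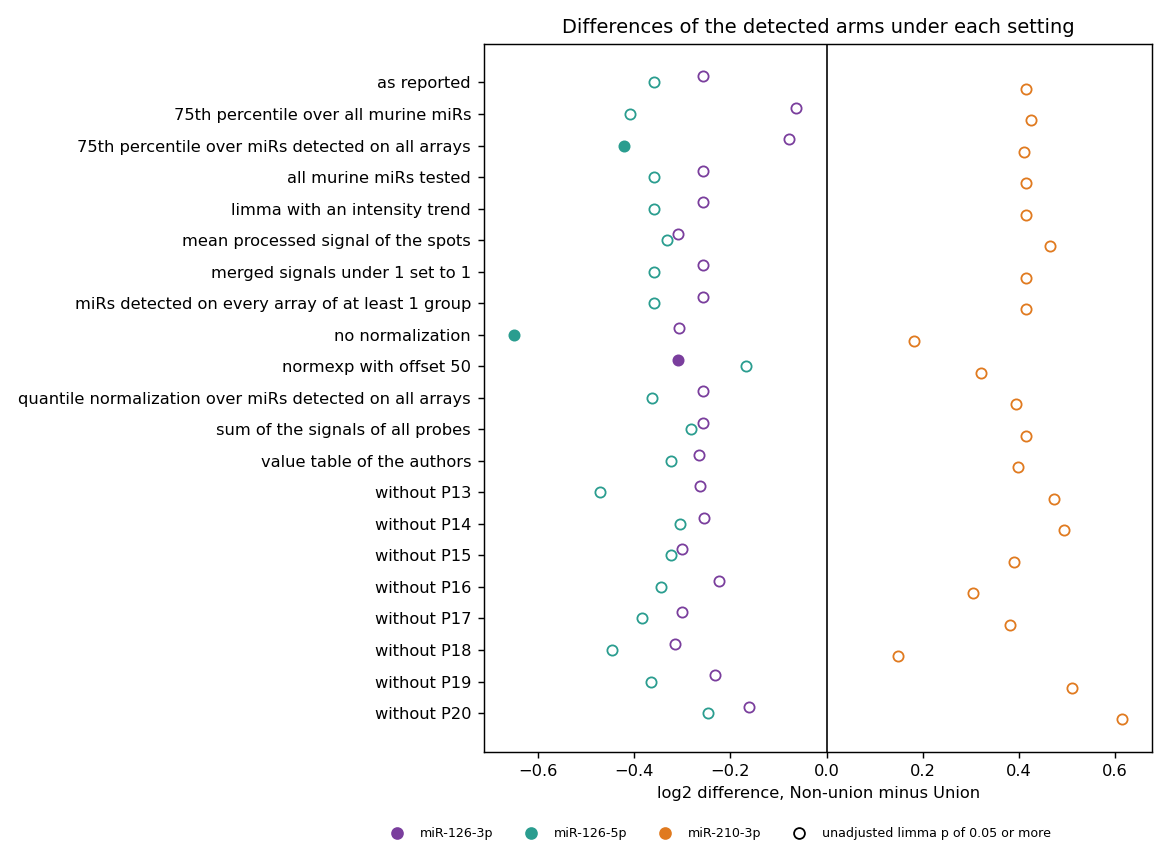
Log2 difference (Non-union minus Union) of miR-126-3p, miR-126-5p and miR-210-3p as reported and under each of 20 alternatives; filled circles have an unadjusted limma p under 0.05. All points of miR-126 lie below 0 and all points of miR-210-3p above 0, and 3 of the points are filled.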

How the data were processed

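The authors extracted the arrays (SurePrint G3 miR arrays, Cy3) with Agilent Feature Extraction (version 10.10.1.1). For each array they deposited linear signal intensity values per spot with background correction, a merged signal intensity per miR (0.1 where not detected) and the call of detection. Their table of normalized log2 values, also deposited, served as an alternative. Groups came from the sample labels. The log2 merged signals were quantile normalized over 1079 murine miRs, and 310 miRs with detection on every array were fitted with limma 3.58.1 in R 4.3.3 (lmFit and eBayes, two-sided, Benjamini-Hochberg adjustment over 310). Differences are Non-union minus Union. For a single miR, an unadjusted limma p under 0.05 was the threshold. The study used the same level with p-values of its own, and also took in miRs by their fold change alone. Single values were tested over all 70 arrangements of the arrays. Whether specimens of a group are separate animals is taken from the methods, and p-values measure the spread between these 8. Python 3.11.15 (numpy 2.4.6, pandas 2.3.3, scipy 1.17.1, matplotlib 3.10.9) was used for the rest. The fit was tested on simulated data with added differences larger than those of the arms. Deviations were shuffled within each miR, which removes effects shared by the miRs of an array. That test therefore does not bear on differences as small as those of the arms. A probe counted as merged if the merged signal matched its inclusion within 1%.

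Named miRs are the arms of miR-126 and miR-210, the members of the vessel growth, hypoxia and marker lists, and for each detected arm the 3 tested miRs with the highest Pearson r. These members and lists were chosen with earlier results of these data known. Alternatives were 4 other scalings (75th percentile over detected or all miRs, none, quantile over detected miRs), averaged spot signals, normexp (offset 50) on median spot and background signals, 2 other filters, signals under 1 set to 1, the value table, limma with an intensity trend, the sum of all probe signals and the probe signal of the software in the probe tests (both chosen after seeing the data) and leaving out each array. No block for slide or scan was fitted, because there was 1 slide and each row held 1 group. Arrays have no depth, and their number limits the precision.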

Additional observations from a re-analysis of the deposited data

How the results depend on the processing

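Of 94 differences and ratios computed under the alternatives, 81 kept their direction and their side of the threshold. For the differences under the 2 other filters and the intensity trend, only the side of the threshold could change. The bright probe of miR-126-5p differed by -0.54 with either probe value, with p = 0.0571 for the probe signal of the software (exact permutation test, chosen after seeing the data), and the other 5 probes kept direction and side. With normexp, the arm ratio of miR-126 was -0.14 in place of 0.10 (exact permutation test, p = 0.171), and miR-126-3p passed the unadjusted threshold (-0.31, limma unadjusted p = 0.0336, adjusted p = 0.368, range of adjusted p over its alternatives 0.360 to 0.862). MiR-126-5p passed it with the 75th percentile over the detected miRs (-0.42, limma unadjusted p = 0.0382, adjusted p = 0.296) and without normalization (-0.65, limma unadjusted p = 0.0141, adjusted p = 0.345, range of adjusted p 0.230 to 0.619). Both settings used the merged signals, which lacked the dim probe on P14, P15 and P16 of the Non-union group and on no Union array. This lowers the Non-union values. The miR-126-3p to miR-210-3p ratio differed by -0.49 (exact permutation test, p = 0.0571) with either 75th percentile and without normalization. Leaving out single arrays gave -0.77 to -0.46, and p was 0.0571 in 6 of 8 exact permutation tests and 0.0286 without P19 or P20. The arm ratio then ranged from 0.02 to 0.21. The differences of miR-126-3p, miR-126-5p and miR-210-3p then ranged from -0.31 to -0.16, from -0.47 to -0.25 and from 0.15 to 0.61. The number of miRs with an unadjusted p under 0.05 ranged from 18 to 115 without single arrays and was within 1.5 times of 43 in 15 of 20 alternatives. Its split of 30 higher and 13 lower was 19 and 16 without normalization and 21 and 17 with quantile normalization over the detected miRs. The median difference of all tested miRs was -0.10 without normalization, and miR-126-3p then lay 0.20 and miR-126-5p 0.55 below it. Over the 20 alternatives, miR-126-3p lay 0.20 to 0.44 and miR-126-5p 0.20 to 0.63 below the median of the tested miRs. The causes were not tested. No paired analysis was possible because the groups share no specimen numbers. Precision is limited by 4 arrays per group, and for the dim probe of miR-126-5p also by a signal near background.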

Other observations

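MiR-142-5p, the third leukocyte arm detected on all arrays, differed by -0.38 (SE 0.42, limma unadjusted p = 0.386, adjusted p = 0.549). Muscle miR-206-3p had a positive difference of 0.44 (limma unadjusted p = 0.242), whereas miR-1a-3p, miR-133a-3p and miR-133b-3p had negative differences of -0.45, -0.52 and -0.15, none of which passed the threshold. The merged signal of miR-340-5p, among the miRs most like miR-126-5p, was 51.9 to 80.4 units in the Non-union group and 65.4 to 156 units in the Union group.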
